A study of Mus musculus with 32 samples.

Results

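The mitochondrial ribosomal proteins are the nuclear-encoded subunits of the ribosome that works inside mitochondria. The members were all genes with a RefSeq protein-coding symbol made of Mrpl or Mrps and a number that had a probe on both versions of the array, with 1 probe per gene, the one of highest mean level over all arrays. The rule found 62 members among 15187 named genes. RefSeq lists 78 such genes, and the other 16 were not analysed here. By where their proteins sit, 40 members belonged to the large subunit, 21 to the small subunit and 1, Mrps36, to neither, since this protein is now placed with the 2-oxoglutarate dehydrogenase complex. Mrps30 and Mrps18a carry small-subunit names but sit in the large subunit and were counted there.

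The mitoribosome makes the few proteins encoded by mitochondrial DNA, all of them subunits of the respiratory chain and ATP synthase. Its ribosomal RNAs come from mitochondrial DNA, whereas its proteins are translated in the cytosol and imported, so the supply depends on many nuclear genes at once. Some subunits descend from bacterial ribosomal proteins and others are found only in mitochondria. Promoters of nuclear genes for mitochondrial proteins are known to bind NRF1, the ETS factor GABP and YY1, and Myc and the PGC-1 family are known to raise their transcription.

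Transcripts were measured on 32 Illumina MouseWG-6 beadchips, each hybridised with RNA pooled from several BALB/c mice aged 7 to 12 weeks. IL5T mice carry an IL-5 transgene driven by the CD2 promoter, which is active mainly in lymphoid cells, and WT mice were not transgenic. From IL5T mice came eosinophils with medium Siglec-F from bone marrow (EoM BM, 3 arrays), eosinophils with high Siglec-F from bone marrow (EoH BM, 4) and peripheral blood (EoH PB, 3), eosinophil progenitors (EoP, 3), granulocyte-macrophage progenitors (GMP, 5) and common myeloid progenitors (CMP, 5), and from WT mice EoPs, GMPs and CMPs (3 arrays each). No WT eosinophils were among these arrays, so every eosinophil value is from transgenic mice. All cells were sorted by flow cytometry, the progenitors from lineage-negative, cKit-positive, Sca1-negative bone marrow and the EoPs by surface IL-5 receptor alpha. The labels of the EoH BM arrays name the sort antibody level as medium although their cell type is given as Siglec-F high, and the array labelled IL5T CMP replicate 2 has a raw column named for GMPs. All 32 of 32 arrays were closest in profile to a group of their own cell type, and that CMP array correlated at 0.989 with the other IL5T CMP arrays and at 0.973 with the nearest other cell type.

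Levels are log2 values after background correction and quantile normalisation, adjusted for the beadchip version, and a gene was called where limma gave a Benjamini-Hochberg adjusted p under 0.05 over all 24159 probes. A probe counted as detected on an array where its detection p was under 0.05. Between 8360 and 10929 probes were detected per array. Of the 62 members, 48 were detected on all 32 arrays, 55 on at least 3, and 6 on none (Mrps14, Mrpl19, Mrps22, Mrpl32, Mrps36 and Mrpl21). By their sample-name prefixes the arrays form 3 sets: the 10 eosinophil arrays (version 1.1 beadchips), IL5T CMP and GMP replicates 1 to 3 (also version 1.1), and the 16 other progenitor arrays (version 2.0). In these bulk samples, fewer cells of a type and less of the RNA per cell cannot be told apart, and the values are relative to the other transcripts of the same array.

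The clearest feature of the members was a common step between progenitors and eosinophils. The median level of the 62 members on each array was 9.34 to 9.44 in EoM BM, 8.89 to 9.24 in EoH BM and 9.09 to 9.32 in EoH PB, against 10.75 to 10.91 in IL5T EoPs. In the other progenitor groups the group mean of this median was 10.69 in IL5T GMPs, 10.52 in IL5T CMPs, 10.32 in WT EoPs, 10.78 in WT GMPs and 10.64 in WT CMPs. Eosinophil arrays and progenitor arrays did not overlap in this summary, and among progenitors the 3 WT EoP arrays were the lowest. Before the version adjustment, WT CMP replicate 2 was at 10.43, just below WT EoP replicates 1 (10.44) and 2 (10.46).

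**Figure D1:**
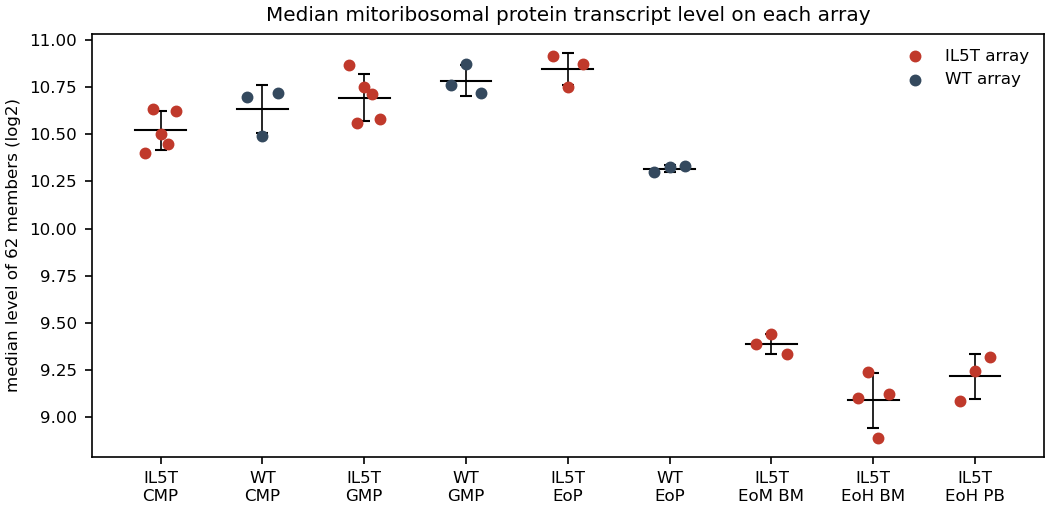
Each point is 1 array and shows the median log2 level of the 62 members (y axis) in each of the 9 groups (x axis), with lines at the group mean and bars of 1 SD. The 10 eosinophil arrays lie between 8.89 and 9.44, and the 3 IL5T EoP arrays at 10.75 to 10.91 lie above the 3 WT EoP arrays at 10.30 to 10.33.

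Most members shared this shape. Over the 9 group means, the median correlation of a member with the members' median profile was 0.954 among the 55 members detected on at least 3 arrays, and 41 of them correlated above 0.9. This is a description over 9 points that share libraries and normalisation. Mrpl16, the mitochondrial relative of bacterial L16, followed the median profile most closely (r = 0.995), next to Mrpl3, a core protein of the large subunit (r = 0.993), and Mrps10 (r = 0.993). The level was lowest in an eosinophil group for 51 of the 55 members. It was highest in IL5T EoPs for 24, in WT GMPs for 17, and in an eosinophil group for 3. The 6 members with r under 0.5 were Mrpl33, Mrpl49, Mrpl14, Mrpl58, Mrpl1 and Mrpl45.

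**Figure D2:**
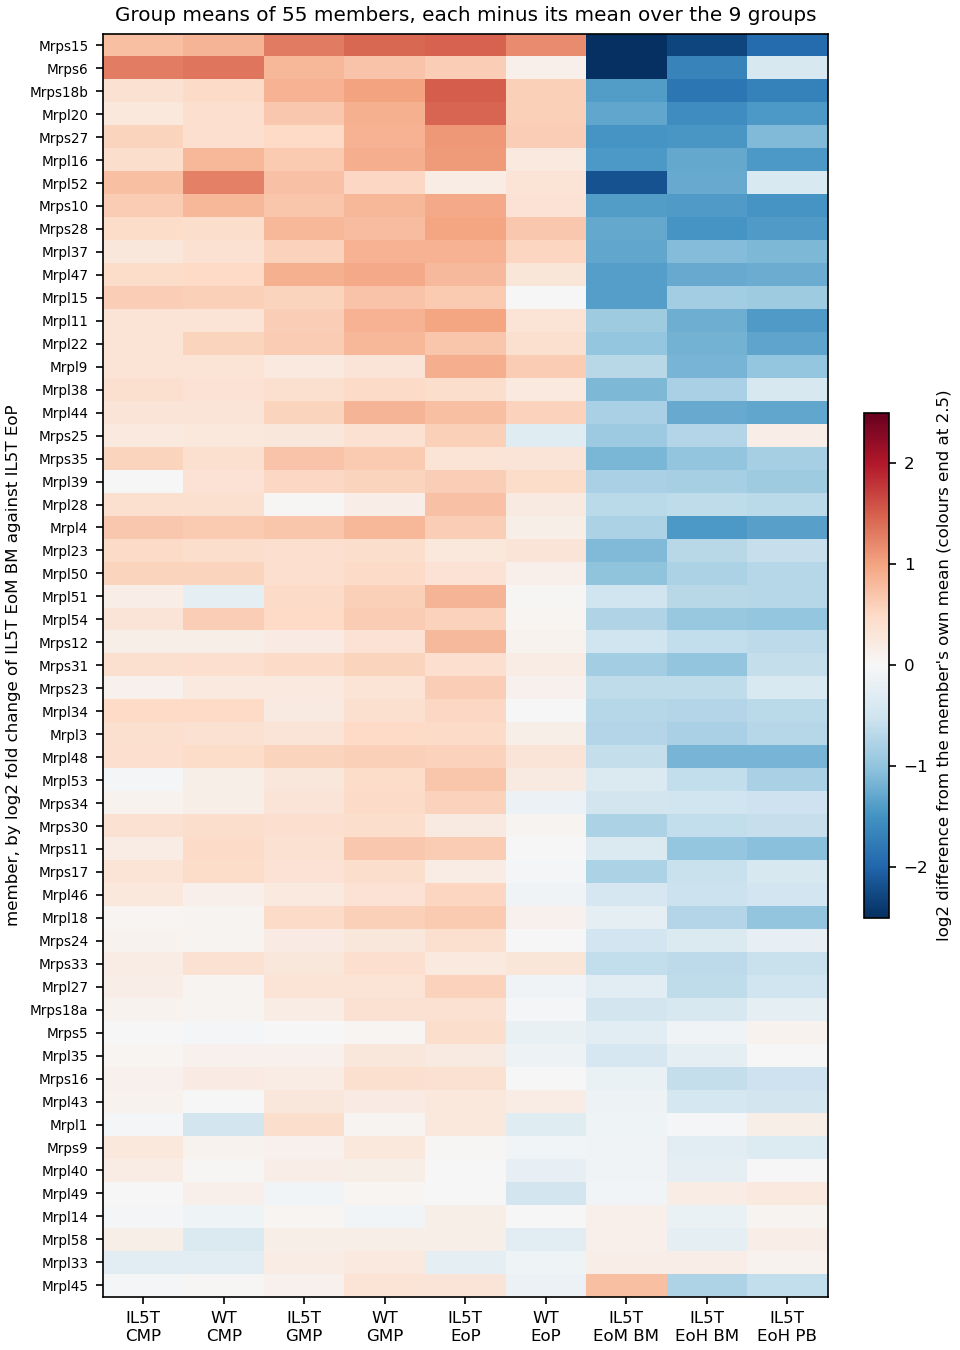
Rows are the 55 members detected on at least 3 arrays and columns are the 9 groups, with colour for the group mean minus the member's own mean over the groups (log2). The 3 eosinophil columns are blue in most rows, while Mrpl49, Mrpl14, Mrpl58 and Mrpl33 near the bottom are nearly flat.

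Promoter windows of 4 members are shown because they carry the main contrasts: Mrps18b and Mrpl16 were low in eosinophils and higher in IL5T than WT EoPs, Mrps27 was low in eosinophils, and Mrpl33 was not. Each runs 5′ to 3′ on the gene's strand over the 250 bases before the RefSeq start (GRCm38.p6), with capitals for matches to any of NRF1 (GCATGCGC), ETS (CCGGAAGT), YY1 (AAGATGGCG) or an E-box (CACGTG), searched on both strands.
Mrps18b (chr17:35916441-35916690, minus strand): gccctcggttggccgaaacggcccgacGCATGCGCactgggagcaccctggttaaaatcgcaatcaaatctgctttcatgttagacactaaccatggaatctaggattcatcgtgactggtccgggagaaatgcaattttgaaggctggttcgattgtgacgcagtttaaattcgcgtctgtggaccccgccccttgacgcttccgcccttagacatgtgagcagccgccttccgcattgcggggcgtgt
Mrpl16 (chr19:11770165-11770414, plus strand): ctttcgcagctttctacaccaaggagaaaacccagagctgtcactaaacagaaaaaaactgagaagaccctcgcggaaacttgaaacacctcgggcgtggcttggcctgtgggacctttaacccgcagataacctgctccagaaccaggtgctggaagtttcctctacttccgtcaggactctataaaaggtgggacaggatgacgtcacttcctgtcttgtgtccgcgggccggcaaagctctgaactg
Mrps27 (chr13:99344536-99344785, plus strand): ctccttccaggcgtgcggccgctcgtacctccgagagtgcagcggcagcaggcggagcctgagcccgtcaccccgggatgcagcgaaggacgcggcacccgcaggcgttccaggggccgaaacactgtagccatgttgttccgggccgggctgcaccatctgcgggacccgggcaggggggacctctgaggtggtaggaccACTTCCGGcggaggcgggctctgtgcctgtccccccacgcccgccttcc
Mrpl33 (chr5:31613701-31613950, plus strand): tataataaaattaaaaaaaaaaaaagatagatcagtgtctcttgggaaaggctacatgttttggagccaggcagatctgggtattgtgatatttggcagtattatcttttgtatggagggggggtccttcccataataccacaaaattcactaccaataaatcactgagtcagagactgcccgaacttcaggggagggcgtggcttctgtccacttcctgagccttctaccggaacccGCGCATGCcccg
The NRF1 letters were in the windows of both Mrps18b, which was among the members that fell most in eosinophils, and Mrpl33, which did not fall. Mrpl16 held none of the 4 motifs. Of the 62 members, 53 had a window. The NRF1 letters were found in 6 members (Mrpl22, Mrpl32, Mrpl33, Mrpl39, Mrpl9 and Mrps18b), or 11.3%, against 2.56% of 27025 genes with a window. The ETS letters were found in 8 members (15.1%, against 3.23% of genes) and the YY1 letters in 1 (1.89%, against 0.71%). The E-box, bound by Myc among others, was found in 2 members (3.77%, against 6.86% of genes), and the CCAAT box, as CCAAT on either strand, in 20 (37.7%, against 37.5%). These letter matches are a description and not sites of binding.

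The comparison of EoM BM with IL5T EoPs asks how the mature cells differ from their progenitors. In EoM BM, 45 of 62 members were lower than in IL5T EoPs and 2 were higher. Of all probes, 15.1% were lower and 13.8% higher. The median log2 fold change was −1.20 over the members and 0.02 over all probes. In 48 of the 62 members, every EoM BM array was below every EoP array, which held for 21.7% of all probes. Among the 55 members detected on at least 3 arrays, with only such probes fitted, 45 were lower and 1 was higher, where 28.9% of probes were lower and 25.8% higher.

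In EoH BM the pattern was much the same. Against IL5T EoPs, 46 members were lower and 1 was higher (all probes 16.1% and 14.5%), with a median log2 fold change of −1.26. Both comparisons use the same 3 EoP arrays.

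Among small-subunit members, Mrps15 showed the largest difference. Mrps15, the counterpart of bacterial S15, was at 5.33, 5.95 and 5.65 in EoM BM and at 5.53 to 6.77 in EoH BM, against 10.44, 9.94 and 9.30 in IL5T EoPs. It was not detected on the EoM BM arrays, so its fall there is a bound, at least 13.9-fold (adjusted p = 8.3e-09, limma). Such a bound sets the mean in EoPs against the lowest signal that counted as detected, or against the undetected signal itself if this was the higher of them. In EoH BM it was 13.7-fold lower (adjusted p = 2.7e-08, limma).

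Mrps6, the counterpart of bacterial S6, was at 6.01, 6.21 and 5.73 in EoM BM, against 9.38, 9.30 and 9.54 in IL5T EoPs, a log2 fold change of −3.42 ± 0.30 (SE), and was detected on 1 of the 3 EoM BM arrays. Its gene overlaps Slc5a3, a myo-inositol transporter gene, and where the probe lies was not given, and the Slc5a3 probe itself was not called (log2 fold change −0.07, adjusted p = 0.86, limma). Mrps18b, one of 3 mammalian relatives of bacterial S18, was at 7.78, 7.77 and 8.06 in EoM BM, against 10.65, 10.81 and 10.88 in IL5T EoPs (log2 fold change −2.91 ± 0.22, SE). The groups were far apart for both genes. Mrps27, a pentatricopeptide-repeat protein, was at 6.93, 6.81 and 7.50 in EoM BM, against 9.37, 9.76 and 9.78 in IL5T EoPs, and fell by 2.56 on the log2 scale. Mrps10 and Mrps28 fell by 2.36 and 2.25. In all, 16 of 21 small-subunit members were lower in EoM BM.

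In the large subunit 29 of 40 members were lower. Mrpl20, which in bacteria is needed early in large-subunit assembly, was at 9.16, 9.51 and 9.15 in EoM BM, against 12.11, 12.50 and 11.51 in IL5T EoPs (log2 fold change −2.76 ± 0.30, SE). Mrpl16 was at 8.68, 8.69 and 8.69 in EoM BM, against 11.12, 11.29 and 11.14 in IL5T EoPs. Its difference of −2.49 ± 0.15 (SE) had the smallest adjusted p of any member (1.3e-12, limma). Mrpl11, at the base of the stalk where translation factors bind, fell by 1.87, and Mrpl3 and Mrpl4, core proteins of the large subunit, by 1.22 and 1.40. Mrps30 fell by 1.02 and Mrps18a by 0.83, and for Mrps18a the overlapping gene Rsph9 went the other way (3.15). Mrpl18 fell by 0.91, and the overlapping Tcp1, a subunit of the cytosolic chaperonin, was lower as well (−2.41, adjusted p = 1.4e-09, limma). Mrpl44, mutated in a human mitochondrial cardiomyopathy, fell by 1.56. Mrpl39 was detected on no EoM BM or EoH BM array and on all 3 EoP arrays, and was at least 1.36-fold lower in EoM BM (adjusted p = 0.003, limma).

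The fall ran through both subunits. The median log2 fold change was −1.20 in the large and −1.25 in the small subunit. No test of one subunit against the other was made.

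A few members stood aside. Mrpl33, a small zinc-binding protein of the large subunit in bacteria, was at 13.44, 13.73 and 13.76 in EoM BM, against 13.27, 13.27 and 13.23 in IL5T EoPs, a log2 fold change of 0.39 (adjusted p = 0.028, limma), which became −0.040 when the arrays were only brought to one median. The other member called higher, Mrps14, was detected on no array. Mrpl58, a peptidyl-tRNA hydrolase that frees stalled mitoribosomes, was at 8.98, 8.89 and 9.06 in EoM BM, against 8.86, 8.70 and 9.42 in IL5T EoPs. Mrpl14, Mrpl49, Mrps9 and Mrpl40 were also within the spread of the EoP arrays, with log2 fold changes of −0.03 to −0.12 and standard errors of 0.19 to 0.29. Mrps16, mutated in a human mitochondrial disease, did not pass in EoM BM (−0.54, adjusted p = 0.18, limma) and was lower in EoH BM (−0.97, adjusted p = 0.0065, limma).

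**Figure D3:**
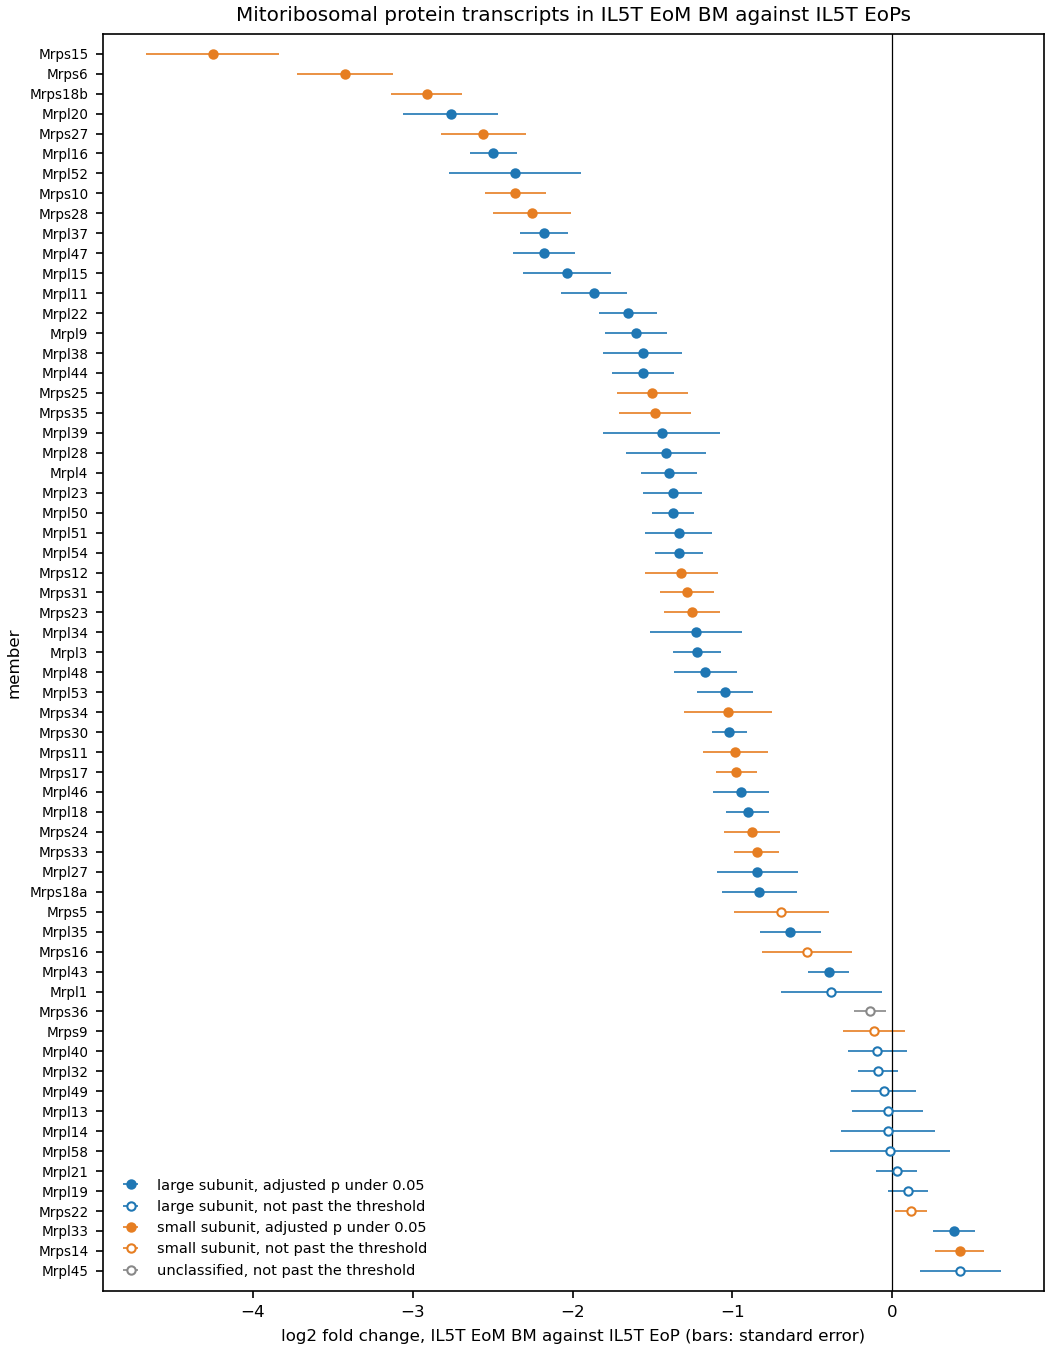
Points are the log2 fold changes of the 62 members in EoM BM against IL5T EoPs (x axis, bars 1 SE), in order of size and coloured by subunit, with filled points for an adjusted p under 0.05. Filled points below 0 number 45, and Mrps15 and Mrpl39, detected on no EoM BM array, are drawn at their fitted values although their fall is known only as a bound.

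Eosinophils and EoPs lay on different beadchip versions and in different array sets, so the comparison depends on how CMPs and GMPs differed between versions, and a shift of the eosinophil set itself cannot be told apart from cell type. That version effect had a median of −0.14 over the members and a range of −5.58 for Mrpl51 to 2.67 for Mrpl52. Mrpl51 was 1.34 lower in EoM BM with this term and 4.25 higher without it, so its direction depends on the term. In a fit on the older version alone, with the IL5T GMP arrays of that version in place of EoPs, 47 members were lower in EoM BM and 1 was higher (median −0.91), and 45 of the 47 members called against EoPs were called there too. The share of all probes called in that fit is not given here, so its counts stand without a background. In that fit Mrpl33 was at −0.12. Of the 15 members with several probes, 13 were called by the brightest, and 15 of their 16 other detected probes changed in the same direction.

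Marker genes moved with the same contrast. Markers of neutrophil secondary granules averaged 11.44 to 12.15 per array in EoM BM, against 5.77 to 6.16 in IL5T EoPs, with 7 of 8 genes called higher and 1 detected on no EoM BM array. Erythroid markers averaged 7.51 to 9.71 in EoM BM, against 6.08 to 6.80 in IL5T EoPs, with 2 of 5 higher and 2 lower. Monocyte and macrophage markers averaged 6.46 to 6.55 in EoM BM, against 5.83 to 6.22 in IL5T EoPs, with 2 of 5 higher and 1 lower. All 4 proliferation markers were lower, at 9.61 to 9.77 in EoM BM, against 11.14 to 11.27 in IL5T EoPs. The male-linked markers were detected on none of the 10 eosinophil arrays, and 2 of 3 were detected on all progenitor arrays. The female-linked marker Xist was detected on every eosinophil array and on some but not all arrays of each progenitor group. The part of these in the members' fall was not tested, and sex and cell type cannot be told apart here.

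Related gene groups were lower in EoM BM too. Of 41 cytosolic ribosomal protein genes 19 were lower and 3 higher (median log2 fold change −0.42), and of 67 respiratory chain and ATP synthase genes 42 were lower and 3 higher (−0.80). Of 4 measured mitoribosome subunits with other symbols, 3 were lower: Dap3 (−0.92), Chchd1 (−1.17) and Ptcd3 (−1.91). The lists were not tested against each other.

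In the wider machinery of mitochondrial translation all called genes were lower, and part of each group was not called. Of 11 translation factors 5 were lower, among them the elongation factors Tufm (−0.99), Tsfm (−1.93) and Gfm1 (−1.82) and the recycling factor Mrrf (−2.01). Of 14 assembly factors 6 were lower, with Tfb1m, a methylase of the small-subunit RNA, at −2.39 and the GTPase Mtg1 at −2.17. Of 13 mitochondrial tRNA synthetases 9 were lower, with Tars2 at −2.02. None of these 3 groups had a gene called higher. Of 14 import genes 9 were lower, led by the chaperone Timm10 (−2.75) and the translocase genes Tomm70a (−2.58) and Tomm40 (−2.53).

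Among 11 known regulators, Myc (−3.61), Ppargc1b (−3.24), Pprc1 (−2.88), Tfam (−1.77) and Gabpb1 (−1.16) were lower in EoM BM. Nrf1 was higher (1.47 ± 0.15, SE). Ppargc1a was called higher too (0.42), but it was detected on no array. Of 9 genes of mitochondrial DNA transcription and upkeep 2 were higher and 2 lower (median −0.60). The higher were the mitochondrial DNA polymerase subunit Polg2 (1.35) and Mterf1a (1.25), and the lower were Tfam and the RNA-binding protein Slirp (−1.59). Gabpa did not pass (0.21, adjusted p = 0.59, limma). Yy1 was detected on no array. The regulator transcripts thus did not all go one way.

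Within the eosinophils fewer members moved. EoH BM against EoM BM gave 1 member higher and 7 lower (all probes 3.69% and 4.75%), EoH PB against EoH BM 2 higher and 0 lower (3.19% and 2.64%), and EoH PB against EoM BM 6 higher and 9 lower (7.49% and 7.45%). The last split turned to 5 higher and 4 lower without the version term and to 7 higher and 3 lower on the eosinophil arrays alone. The medians were close to 0 in all of these (−0.03, 0.06 and −0.02). The eosinophil comparisons lie within 1 beadchip version and 1 array set. On the arrays of the 2 groups alone, 2 members were called in EoH BM against EoM BM and 1 in EoH PB against EoH BM.

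Mrps6 changed at both steps. It was at 7.61, 7.48, 6.81 and 6.57 in EoH BM, against 6.01, 6.21 and 5.73 in EoM BM (log2 fold change 1.13 ± 0.22, SE), and at 8.23, 8.26 and 8.68 in EoH PB (1.27 ± 0.22 against EoH BM). The 3 eosinophil groups did not overlap for this gene, and the log2 fold change of EoH PB against EoM BM was 2.41 ± 0.23 (SE), with 1 of 3 EoM BM arrays detected. On the arrays of each pair alone, the single steps of Mrps6 no longer passed (adjusted p = 0.099 and 0.098, limma) and the difference between EoH PB and EoM BM did (0.0017). The Slc5a3 probe had a log2 fold change of 0.21 in EoH PB against EoM BM (adjusted p = 0.45, limma). Mrpl52, a large-subunit protein found only in mitochondria, was at 8.95, 8.95 and 8.55 in EoH PB, against 6.65, 6.90 and 7.50 in EoM BM (1.80 ± 0.32, SE), with EoH BM between them at 7.22 to 8.67, and was detected on 1 of 3 EoM BM arrays. Mrps25, a small-subunit protein, was at 8.35, 8.22 and 8.70 in EoH PB, against 7.43, 7.56, 7.33 and 7.74 in EoH BM (0.91 ± 0.16, SE), while EoH BM and EoM BM overlapped. Mrpl38 was 0.71 higher in EoH PB than in EoM BM.

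Other members were lower in EoH cells. Mrpl45, which in human mitoribosomes lies by the exit tunnel and the inner membrane, was not detected on any EoH array, with levels of 4.94 to 5.36 in EoH BM and 5.05 to 5.64 in EoH PB, against 6.20, 6.89 and 6.86 in EoM BM, where it was detected on all 3 arrays. The fall was at least 1.59-fold in EoH BM (adjusted p = 2.9e-06, limma) and at least 1.57-fold in EoH PB (adjusted p = 1.1e-05, limma). Mrpl4 was at 8.41, 8.57, 8.28 and 8.55 in EoH BM, against 8.93, 9.10 and 9.27 in EoM BM (−0.65 ± 0.13, SE). Mrps11, Mrpl48, Mrpl18, Mrpl9 and Mrpl43 were also lower in EoH BM, by 0.60 to 0.30 on the log2 scale. All of these but Mrpl9 were lower in EoH PB than in EoM BM as well. In that comparison 2 overlapping genes were also called lower, Rab6a (−1.47, adjusted p = 0.011, limma), which overlaps Mrpl48, and Twnk (−0.85, adjusted p = 0.033, limma), which overlaps Mrpl43. Their signal cannot be told apart from that of the members. Of the members with several probes, 3 were called in EoH BM against EoM BM. Among their 3 other detected probes, 2 changed in the same direction.

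Marker levels also differed among the eosinophil groups. Proliferation markers averaged 7.75 to 8.07 in EoH PB, against 9.61 to 9.77 in EoM BM, and T and NK cell markers 7.41 to 7.78 in EoH PB, against 4.89 to 5.21 in EoM BM, where 3 of 3 were undetected. Monocyte and macrophage markers averaged 8.45 to 8.93 in EoH PB, against 6.46 to 6.55 in EoM BM, with 4 of 5 called higher. Progenitor markers averaged 5.56 to 6.55 in EoH PB, against 8.40 to 8.90 in EoM BM, with 4 of 6 called lower. Neutrophil granule markers averaged 9.13 to 10.43 in EoH PB, against 11.44 to 12.15 in EoM BM, and erythroid markers 5.97 to 7.42 in EoH PB, against 7.51 to 9.71 in EoM BM. Eosinophil markers averaged 9.37 to 10.32 in EoH PB, against 11.20 to 11.35 in EoM BM, with 2 of 6 called lower and 0 higher. The part of all these markers in the members' differences was not tested. Of 13 mitochondrial tRNA synthetases 6 were higher in EoH PB than in EoM BM.

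**Figure D4:**
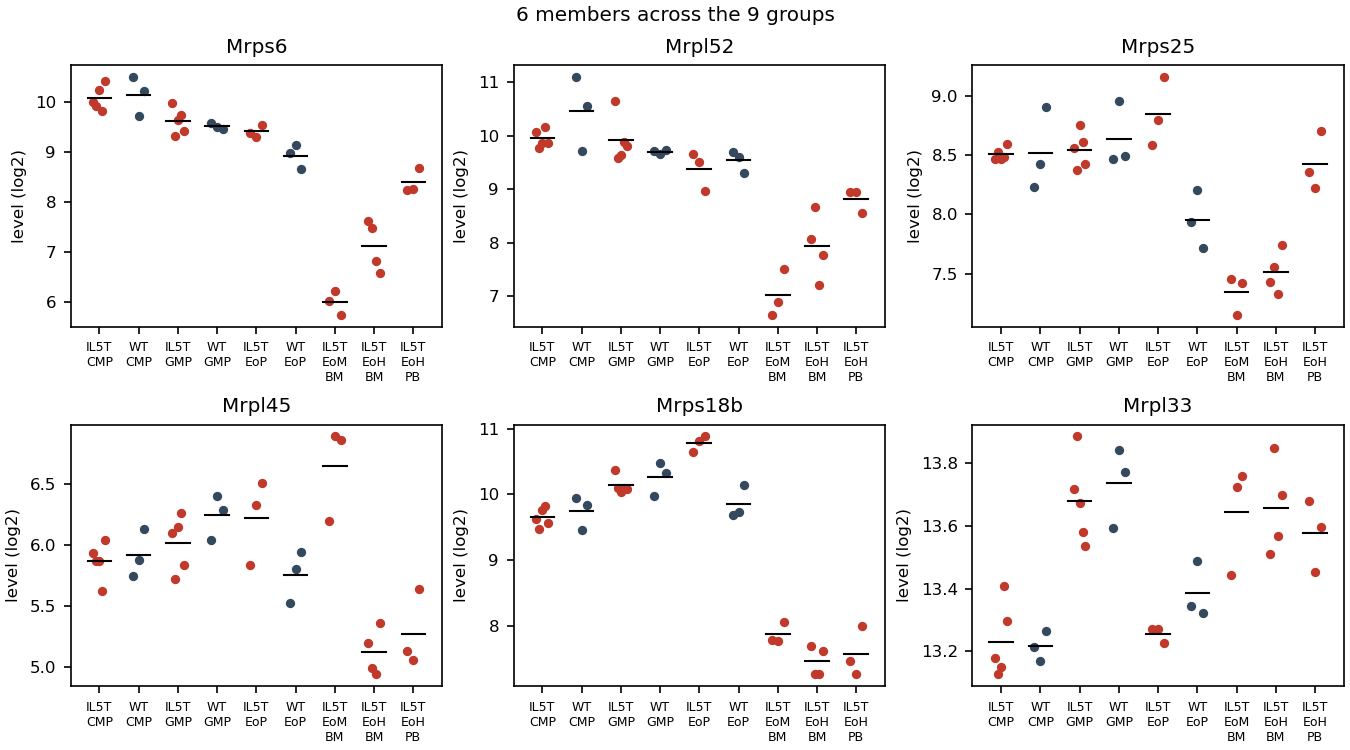
Panels show the log2 level of 6 members (y axis, own scale) on each array of the 9 groups (x axis, progenitors to eosinophils), with a line at the group mean. Mrps6 and Mrpl52 are higher in EoH PB than in EoM BM, Mrpl45 is below 6 on all EoH arrays and above 6 on the EoM BM arrays, and Mrps18b and Mrps25 are higher on the IL5T EoP than the WT EoP arrays.

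Along the progenitor steps, changes were small. In IL5T GMPs against IL5T CMPs 5 members were higher and none was lower (all probes 4.49% and 6.19%), namely Mrps18b, Mrpl33, Mrpl18, Mrpl47 and Mrpl37, by 0.49 to 0.30 on the log2 scale. This count was 3 without IL5T CMP replicate 2 or IL5T GMP replicate 1. On the older-version arrays alone 4 members were called, 3 of them among these 5, and on the newer-version arrays alone none (limma, 7 at an unadjusted p under 0.05). In WT GMPs against WT CMPs 6 were higher and none lower (4.24% and 4.91%), with Mrpl51 at 0.81 ± 0.16 (SE), Mrpl33 at 0.52 and Mrpl18 at 0.52.

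From GMP to EoP the genotypes gave different counts. In IL5T EoPs against IL5T GMPs 6 members were higher and 1 was lower (all probes 4.77% and 4.54%). Mrpl20 was at 12.11, 12.50 and 11.51 in IL5T EoPs, against 10.97 to 11.52 with a median of 11.30 in IL5T GMPs (0.78 ± 0.24, SE), so that the lowest EoP array overlapped the GMPs. Mrpl28, Mrpl9, Mrps18b, Mrps12 and Mrpl16 were 0.70 to 0.41 higher, and Mrpl33 was lower (−0.42 ± 0.11, SE). With only the newer-version arrays of the 2 groups, 2 members were called. Without the version term 1 was called, a lower one, and Mrpl16 was at −0.25. The count was 2 without IL5T EoP replicate 2 or IL5T GMP replicate 5 and 4 without IL5T EoP replicate 3. Monocyte and macrophage markers averaged 5.83 to 6.22 in IL5T EoPs, against 8.46 to 8.69 in IL5T GMPs, with 4 of 5 called lower. Erythroid markers averaged 6.08 to 6.80 in IL5T EoPs, against 5.14 to 5.84 in IL5T GMPs, with 2 of 5 higher. Eosinophil markers averaged 9.01 to 9.26 in IL5T EoPs, against 8.15 to 9.10 in IL5T GMPs, with 1 of 6 higher. Of 6 progenitor markers 1 was lower. The part of these markers in the members' differences was not tested.

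In WT EoPs against WT GMPs 16 members were lower and none was higher (all probes 4.86% and 4.36%), with a median log2 fold change of −0.35 over the members and −0.01 over all probes. In 36 members every WT EoP array was below every WT GMP array, as for 15.4% of all probes. Among the 55 members detected on at least 3 arrays, with only such probes fitted, 16 were lower and none was higher, where 9.4% of probes were lower and 8.33% higher. Mrpl16 was at 10.32, 10.39 and 10.36 in WT EoPs, against 10.90, 11.08 and 11.11 in WT GMPs (−0.68 ± 0.12, SE). Mrpl15, Mrps25, Mrpl4 and Mrps11 fell by 0.70 to 0.66. The count was 43 with arrays scaled to a common median. Under that scaling 3024 of all probes were called lower and 921 higher, against 1173 and 1054 otherwise. The added lower calls were thus not confined to the members. The count of members was 8 without WT GMP replicate 2, 9 without WT EoP replicate 1 or 3, and 10 without WT GMP replicate 3. Markers moved in this comparison as well. Monocyte and macrophage markers averaged 6.02 to 6.92 per array in WT EoPs, against 7.90 to 8.40 in WT GMPs, with 2 of 5 called lower. Erythroid markers averaged 8.11 to 8.66 in WT EoPs, against 5.70 to 8.49 in WT GMPs, with 1 of 5 higher. Of 6 eosinophil markers 3 were higher, and of 4 proliferation markers 1 was lower, at 10.84 to 11.01 in WT EoPs, against 11.20 to 11.41 in WT GMPs. Their part in the fall of the members was not tested.

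The transgene was then compared within each progenitor stage. In CMPs and GMPs no member was called between IL5T and WT (all probes 0.691% in CMPs and 0.0745% in GMPs), with 3 and 2 members at an unadjusted p under 0.05. The medians were −0.01 and −0.10, and 48 of the 62 members had a negative value in GMPs. The unadjusted count was 0 in CMPs and 26 in GMPs with arrays scaled to a common median. Without the version term it was 16 in CMPs and 6 in GMPs. No member was called in these fits either. Of 6 eosinophil markers 2 were called higher in IL5T CMPs and 2 in IL5T GMPs. That list averaged 6.61 to 8.51 per array in IL5T CMPs, against 4.73 to 6.59 in WT CMPs. In GMPs it averaged 8.15 to 9.10 in IL5T, against 6.14 to 6.89 in WT. Of 5 erythroid markers 2 were lower in IL5T CMPs. The part of these markers in the comparisons was not tested.

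In EoPs the genotypes differed. IL5T EoPs had 18 members higher than WT EoPs and none lower, where 3.75% of all probes were higher and 3.55% lower. The median log2 fold change was 0.37 over the members and 0.01 over all probes, and 55 of the 62 members had a positive value. In 35 members every IL5T EoP array lay above every WT EoP array, as for 12.5% of all probes. With only detected probes fitted, 19 of 55 members were higher and none lower, where 7.12% of probes were higher and 7.29% lower. All 6 arrays lie in 1 array set and on 1 beadchip version, and on the arrays of these 2 groups alone 14 members were higher and none lower, 12 of them among the 18.

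Mrpl16 again had the smallest adjusted p. It was at 11.12, 11.29 and 11.14 in IL5T EoPs, against 10.32, 10.39 and 10.36 in WT EoPs, 1.77-fold higher (adjusted p = 4.5e-05, limma). Mrps18b was at 10.65, 10.81 and 10.88 in IL5T EoPs, against 9.69, 9.73 and 10.14 in WT EoPs (log2 fold change 0.93 ± 0.17, SE), the largest difference among the members called. Mrps25 was at 8.58, 8.80 and 9.15 in IL5T EoPs, against 7.94, 8.20 and 7.72 in WT EoPs (0.89 ± 0.17, SE). The groups did not overlap for any of these 3 genes.

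Mrpl20 was at 12.11, 12.50 and 11.51 in IL5T EoPs, against 11.22, 11.33 and 10.99 in WT EoPs (0.86 ± 0.23, SE). Mrps12, a protein of the decoding centre, was at 12.15, 12.32 and 12.27 in IL5T EoPs, against 11.64, 11.53 and 11.38 in WT EoPs (0.73 ± 0.18, SE). Mrpl11 was at 10.94, 10.68 and 10.78 in IL5T EoPs, against 10.18, 10.33 and 9.94 in WT EoPs (0.65 ± 0.16, SE). Each of these was higher on every IL5T array. Mrps34, mutated in a human form of Leigh syndrome, rose by 0.73, and Mrpl51 by 0.81. The other 10 called members rose by 0.46 to 0.67.

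The rise was found in both subunits, with 11 of 40 large-subunit and 7 of 21 small-subunit members called. Mrps9 (0.10, adjusted p = 0.84, limma) and Mrpl44 (0.17, adjusted p = 0.64, limma) overlapped between the genotypes. Mrpl33 was at 13.27, 13.27 and 13.23 in IL5T EoPs, against 13.35, 13.49 and 13.32 in WT EoPs, and did not pass (−0.13, adjusted p = 0.60, limma). For 5 called members another detected probe existed, and all 5 changed in the same direction without passing.

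**Figure D5:**
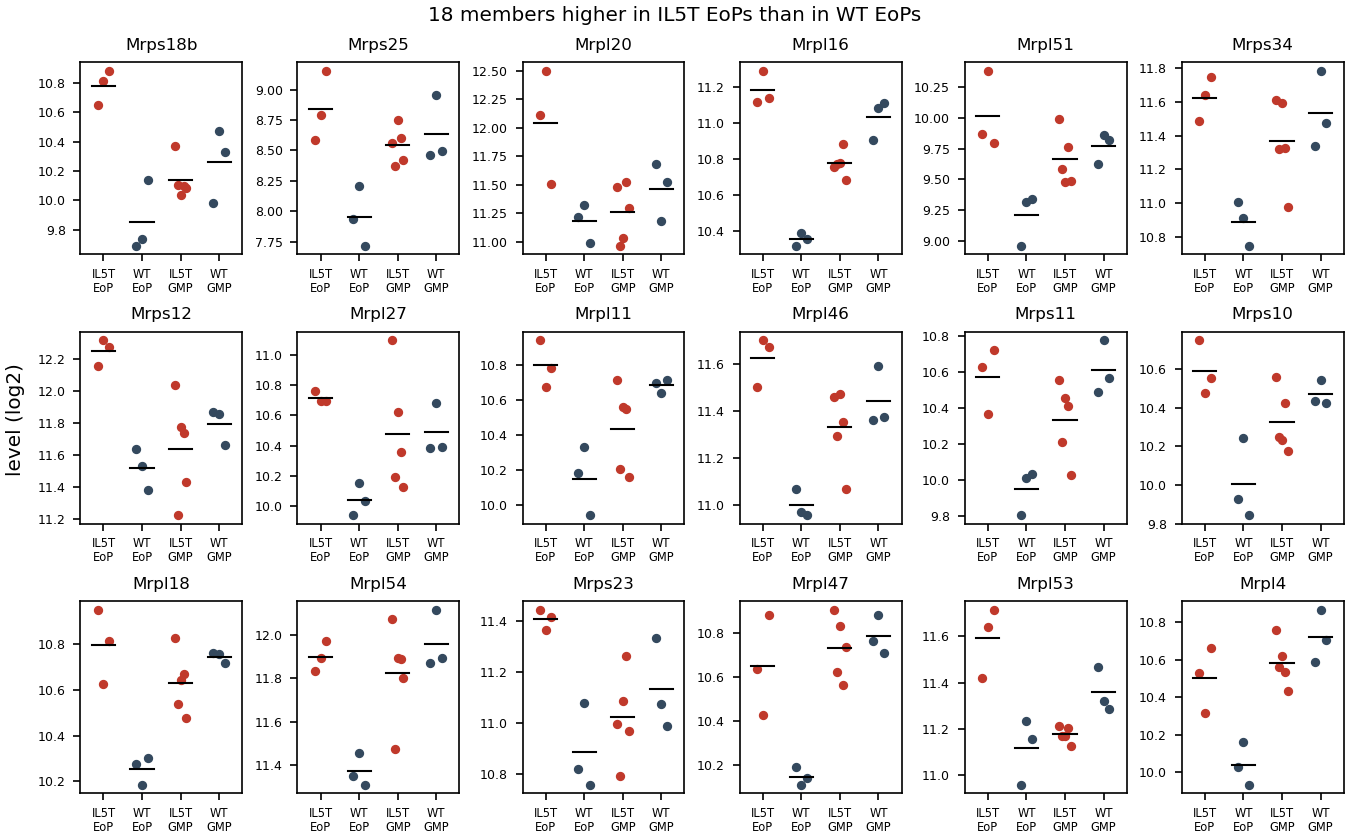
Panels show the log2 level of the 18 members called in EoPs (y axis, own scale) on each array of IL5T EoPs, WT EoPs, IL5T GMPs and WT GMPs (x axis), with a line at the group mean. In Mrpl16 the IL5T EoP arrays lie at 11.12 to 11.29 and the WT EoP arrays at 10.32 to 10.39, while the GMP arrays of both genotypes lie at 10.69 to 11.11.

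Leaving out 1 array changed how many members passed. The count was 9 without WT EoP replicate 1 and 8 without WT EoP replicate 3, with all of them higher in IL5T EoPs. It was 21 with the arrays scaled to a common median.

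The IL5T effect in EoPs was larger than in GMPs for 10 members and smaller for none (all probes 1.80% and 1.46%), by a test of the difference itself. The 10 were Mrpl16 (1.08), Mrps18b (1.05), Mrps25 (0.99), Mrpl51 (0.92), Mrps11 (0.90), Mrpl11 (0.89), Mrpl46 (0.74), Mrpl54 (0.66), Mrpl18 (0.66) and Mrpl37 (0.65), in log2 units. For Mrpl16 the effect in GMPs was −0.26 ± 0.12 (SE) and for Mrps18b −0.12 ± 0.18 (SE). The median difference was 0.48 over the members and 0.01 over all probes. The same 3 WT EoP arrays enter this difference, IL5T against WT EoPs and WT EoPs against WT GMPs, so these results are not independent. The count of 10 was less steady than the others. It was 2 without IL5T GMP replicate 5, WT EoP replicate 1 or WT GMP replicate 2, 5 without WT EoP replicate 3, and 16 on the newer-version arrays alone. Of 6 eosinophil markers 2 were lower in this difference and none higher, and of 6 progenitor markers 1 was lower. Their part in the members' difference was not tested.

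Related gene groups were also counted in the EoP comparison, and the lists were not tested against each other. Of 67 respiratory chain and ATP synthase genes 6 were higher and none lower in IL5T EoPs (median 0.21), and of 41 cytosolic ribosomal protein genes 3 were higher and 3 lower (median −0.03). The 4 subunits with other symbols, Dap3, Chchd1, Ptcd3 and Gadd45gip1, had log2 fold changes of 0.34 to 0.69 and none passed. Timm50, of the inner-membrane import complex, was 1.31 higher and Timm17a 0.59 higher, and the assembly GTPase Mtg1 was 0.49 higher. Guf1 (−1.19), Wars2 (−1.15), Tomm6 (−0.87) and Polg2 (−0.49) were lower. Among the regulators Gabpb1, a subunit of GABP, was higher (0.63, adjusted p = 0.025, limma), and Myc was at 0.01 ± 0.26 (SE).

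Markers of other cells also differed between the EoPs. Erythroid markers averaged 6.08 to 6.80 per array in IL5T EoPs, against 8.11 to 8.66 in WT EoPs. Of the 5, 2 were called lower and none higher, with Hba-a1 at −5.12 and Car1 at −3.28. Klf1 and Epor went the other way without being called higher. Klf1 averaged 9.54 in IL5T EoPs and 8.55 in WT EoPs, and Epor 6.70 and 6.56. All 5 erythroid markers were detected in WT EoPs, and 1 was detected on no IL5T EoP array. The same list averaged 5.14 to 5.84 in IL5T GMPs and 5.70 to 8.49 in WT GMPs. Kit, the stem cell factor receptor used in the sort, was lower in IL5T EoPs (−1.06). Proliferation markers averaged 11.14 to 11.27 in IL5T EoPs, against 10.84 to 11.01 in WT EoPs, with none of 4 called. The eosinophil list averaged 9.18 in IL5T EoPs and 9.35 in WT EoPs with none of 6 called. Xist ranged from 5.62 to 10.44 in IL5T EoPs and from 5.49 to 11.80 in WT EoPs, and was not called. The part of these differences in the members' rise was not tested.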

How the data were processed

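RNA of sorted cells was hybridised to Illumina MouseWG-6 beadchips of versions 1.1 and 2.0. The authors deposited probe intensity values, not normalized between arrays, with detection p-values against negative control probes, and log2 values that the authors had corrected by normexp and quantile normalized without a term for beadchip version. The scanner software was not given in the sources used here.

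The deposited intensity was background-corrected here by normexp from the detection p-values within each version (offset 16), taken to log2 and quantile normalized over 32 arrays on the 24159 probes shared by both versions. The result differed from the deposited log2 values by at most 0.163. limma 3.58.1 (R 4.3.3) was fitted with group and beadchip version over all arrays (22 residual degrees of freedom). All p-values received a Benjamini-Hochberg adjustment over these probes, with a threshold of 0.05. Printed levels of single arrays had the version effect removed. The number of arrays limits the precision, and as nothing says that replicates came from separate litters or days, p-values measure only the spread between these arrays. The test was checked on simulated data with independent noise and no shift between array sets, so this check does not cover such shifts. A log2 change of 0.5 was recovered in 15.5% of changed probes in EoM BM against IL5T EoPs. In IL5T against WT EoPs it was recovered in 37.5%.

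Of the 24159 probes, 21157 carried 1 gene name, 147 several and 2855 none. The value of a gene was that of its brightest probe, and 15 members had other probes. For 15 members another protein-coding gene overlaps in RefSeq, and as the position and strand of a probe were not given, signal from these genes cannot be told apart from the member's own. Promoter sequences came from RefSeq (GRCm38.p6). The rule for named members took in each comparison the 5 called members with the largest rise and fall, called members against the majority, members with known roles (23 listed, 15 measured), and those with the highest and lowest correlation to the median profile. Members and lists were chosen with earlier results of these data known. Alternatives were the deposited log2 values, common-median scaling, no background correction, detected probes only, no version term, array set as a random block, replicate number as a block, the mean of all probes, arrays of 1 set, and each array left out.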

Additional observations from a re-analysis of the deposited data

Results flagged for a closer look

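For 10 members the IL5T effect differed between EoPs and GMPs by the interaction term (log2 units): Mrpl16 1.08, Mrps18b 1.05, Mrps25 0.99, Mrpl51 0.92, Mrps11 0.90, Mrpl11 0.89, Mrpl46 0.74, Mrpl54 0.66, Mrpl18 0.66 and Mrpl37 0.65, with adjusted p-values (limma) of 0.00038 to 0.034. Mrpl51 is the least secure of them, since its value turned to −2.43 without the beadchip version term.

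Among 97 group values with 4 or 5 arrays, 6 had an array far from the others, where chance gives about 1 in 20. Mrpl15 was at 10.6 in EoH BM replicate 3, with the next array at 9.73. Mrpl18 was at 9.24 in the same array, with the next at 9.46. In IL5T GMP replicate 1, Mrpl52 was at 10.7 (next 9.89) and Mrps18b at 10.4 (next 10.1). Mrpl48 was at 10.4 in IL5T GMP replicate 2 (next 10.9), and Mrps18a at 11.2 in IL5T CMP replicate 5 (next 10.6).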

How the results depend on the processing

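The counts of members in EoM BM and EoH BM against EoPs stayed within 1.5 times under every alternative and between 44 and 49 with any 1 array left out. For the other comparisons the version term, the scaling and single arrays mattered, and the cause was not tested. With arrays scaled to a common median, 3 members were called in EoH BM against EoM BM, 1 in IL5T GMPs against CMPs, 4 in IL5T EoPs against GMPs, 15 in WT GMPs against CMPs, 43 in WT EoPs against GMPs and 31 in the difference of the IL5T effect. The calls over all probes changed with this scaling too. In the difference of the IL5T effect 1201 probes were higher and 303 lower, against 436 and 352 otherwise. In WT EoPs against GMPs 921 were higher and 3024 lower, against 1054 and 1173 otherwise. Without the version term the counts were 4 for EoH BM against EoM BM, 9 (5 higher and 4 lower) for EoH PB against EoM BM, 1 (lower) for IL5T EoPs against GMPs, 3 for WT GMPs against CMPs, 6 for WT EoPs against GMPs, 5 for IL5T against WT EoPs and 2 for the difference of the IL5T effect. With array set as a random block they were 3 for IL5T EoPs against GMPs, 3 for WT GMPs against CMPs and 3 for the difference of the IL5T effect. On arrays of 1 set they were 2 for EoH BM against EoM BM, 1 for EoH PB against EoH BM, 10 (7 higher and 3 lower) for EoH PB against EoM BM, 0 on the newer and 4 on the older version for IL5T GMPs against CMPs (2 sets), 2 for IL5T EoPs against GMPs and 16 for the difference of the IL5T effect. EoM BM and EoH BM share no array set with EoPs, so that alternative could not be run for them.

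Leaving out 1 array gave 44 to 47 members for EoM BM and 46 to 49 for EoH BM against EoPs, 5 to 10 for EoH BM against EoM BM, 2 to 4 for EoH PB against EoH BM, 11 to 16 for EoH PB against EoM BM, 3 to 6 for IL5T GMPs against CMPs, 2 to 8 for IL5T EoPs against GMPs, 4 to 7 for WT GMPs against CMPs, 8 to 19 for WT EoPs against GMPs, 8 to 20 for IL5T against WT EoPs, 2 to 14 for the difference of the IL5T effect, and 0 to 0 in CMPs and in GMPs between genotypes. The split of EoH PB against EoM BM turned to 10 higher and 5 lower without EoH PB replicate 1 (15 called) and to 8 higher and 5 lower without EoM BM replicate 3 (13 called). IL5T GMPs against CMPs had 3 members without GMP replicate 1 or CMP replicate 2, IL5T EoPs against GMPs had 2 without EoP replicate 2 or GMP replicate 5 and 4 without EoP replicate 3, EoH BM against EoM BM had 5 without EoM BM replicate 2 or 3, and EoH PB against EoH BM had 4 without EoH BM replicate 2.

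The replicate numbers did not pair the arrays: over 112 same-number pairs of different groups the median correlation of deviations was 0.00 (−0.69 to 0.50), and 3 of 32 arrays were closest to their own number. With the replicate number as a block, 37 members were called in EoM BM and 32 in EoH BM against EoPs, 14 in IL5T against WT EoPs, 0 in IL5T EoPs against GMPs and 0 in the difference of the IL5T effect (limma, 5 and 16 at an unadjusted p under 0.05).

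Single members that changed direction were Mrpl33 in EoM BM (−0.040 with common-median scaling, −0.12 against GMPs of the same version) and in EoH BM (−0.26 and −0.10), Mrpl51 in EoM BM (4.25 without the version term, 2.51 with the random block), in EoH BM (4.04 and 2.31) and in the difference of the IL5T effect (−2.43 and −0.35), and Mrpl16 in IL5T EoPs against GMPs (−0.25 without the version term). Of 5375 values of single members under an alternative, 328 kept their direction and lost the threshold. These values covered 131 pairs of a member and a comparison, and only 49 of those pairs stayed past the threshold under every alternative. The comparison with GMPs of the same version was chosen after seeing the data.

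Scaling to a common median also changed the share of all called probes that were higher, to 34.3% in EoM BM and 36.1% in EoH BM against EoPs (47.6% and 47.3% otherwise), 60.3% in WT GMPs against CMPs (46.4%), 23.3% in WT EoPs against GMPs (47.3%), 51.5% in IL5T against WT GMPs (77.8%) and 79.9% in the difference of the IL5T effect (55.3%).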
